A study of Arabidopsis thaliana with 4 samples.

Results

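The xyloglucan endotransglucosylase/hydrolase (XTH) family of Arabidopsis thaliana, XTH1 to XTH33, was followed in shoot apices of clv3 and mp clv3 plants. Its members were taken by their gene identifiers in family number order, and all 33 were found among the 27322 genes used. RNA-seq was made from the apices of inflorescences of 6-week-old soil-grown plants (22 °C, 16 h light and 8 h dark) from which the older flowers had been taken off. Both genotypes are labelled as mutant in CLV3, which codes for the small secreted signal that keeps the stem cell pool of the shoot small. The mp clv3 plants also lack normal function of MP (MONOPTEROS, ARF5), an auxin response factor needed to start flowers, and the labels name the alleles mp319 and clv3-7 for them. For the other genotype the growth description names Col-0 while the genotype label says clv3, and the genotype label was followed. The labels do not say how many plants went into a library.

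Although the labels list 2 libraries for each genotype, the deposited values are 1 column for each, so variation among libraries could not be measured and no difference below has a replicate check. The clv3 column held 100328819 reads and the mp clv3 column 103347441. Levels are given in RPKM, the reads of a gene corrected for the length of its model and for the total of its column. A difference is written as a fold from the reads scaled to the column totals, with an exact 95% interval on read pairs that covers counting error only. A gene was called higher or lower where the authors' deposited table gave a false discovery rate (FDR) under 0.05 and the fold was at least 2. For several members this FDR was far below an adjusted p-value computed with pairs as counts, as given in the processing section. As a check of the labels, MP itself was at 74.8 RPKM in clv3, against 14.5 RPKM in mp clv3. CLV3 was at 1.40 RPKM in clv3, against 15.8 RPKM in mp clv3. Since both genotypes are labelled as mutant in CLV3, its level does not check the labels.

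XTH enzymes act in the cell wall on xyloglucan, the polymer that coats and tethers cellulose in the primary walls of dicots. Most of them cut a xyloglucan chain and join its new end to another chain (endotransglucosylase activity), while a few mainly hydrolyse it. They are known for wall loosening and wall building in growing tissue, and several are also induced by touch, hormones or wounding. The family tree is usually drawn as group I (XTH1 to XTH11), group II (XTH12 to XTH26) and group III (XTH27 to XTH33).

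All XTH proteins are built around a short catalytic core with a pair of acidic glutamates. A search of the RefSeq coding sequences (TAIR10.1) for this core found exactly 1 match in 32 of 33 members, and no match under the pattern used in XTH11. The 27 bases that encode it are shown for the members that carried most of the family's level or of its change, with the codons of the 2 glutamates in capitals, to show what these genes share and that their bases still differ.
XTH9, chr4:1416538-1416564, plus strand: aacGAAttcgattttGAGttcttaggg
XTH4, chr2:2764493-2764519, plus strand: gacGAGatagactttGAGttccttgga
XTH6, chr5:26299616-26299642, plus strand: gacGAGctagattttGAGttcttggga
XTH15, chr4:8137782-8137808, minus strand: gacGAGatagactttGAGtttctaggt
XTH3, chr3:9127367-9127393, plus strand: gacGAGattgacttcGAGtttctaggg
XTH18, chr4:14826569-14826595, minus strand: gatGAGattgatttcGAGttcttagga
XTH19, chr4:14829561-14829587, minus strand: gatGAGattgatttcGAGtttttgggg
XTH22, chr5:23307839-23307865, minus strand: gacGAGatagatttcGAGtttttaggg
XTH23, chr4:13129072-13129098, plus strand: gacGAGattgactttGAGttcttggga
XTH24, chr4:14820042-14820068, minus strand: gatGAGattgattttGAGttcttgggt
XTH32, chr2:15474073-15474099, minus strand: gatGAGgtagacataGAAtttttgggg
No 2 of the 32 stretches were identical in bases. All encode 2 glutamates around an aspartate because the search pattern required these residues.

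The family split between the genotypes. In mp clv3, 9 members were higher (XTH17 to XTH24 and XTH31) and 8 were lower (XTH3, XTH6, XTH8, XTH9, XTH14, XTH15, XTH25 and XTH33). Over all 27322 genes, 8.98% were called higher and 16.9% lower in this way. Without a minimum fold, 13 members were higher and 12 lower by the authors' FDR, against 26.4% higher and 46.3% lower over all genes. The remaining 8 were 4 with reads but an FDR above 0.05 (XTH11, XTH26, XTH29 and XTH30) and 4 with no read in either column (XTH1, XTH2, XTH12 and XTH13). The median log2 ratio of the 29 members with a ratio, with XTH14, XTH21 and XTH33 at their bound, was 0.13, against -0.18 for the 22987 genes with a ratio. The family median is the value of XTH30 (189 and 213 reads), whose interval includes no difference.

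The groups of the tree differed in their counts. Over all genes, 8.98% were called higher and 16.9% lower. Group I had 0 of 11 members higher and 4 lower, with a median log2 ratio of -0.76 over 9 members with a ratio. That median is the value of XTH7 (56 and 34 reads), whose interval includes no difference. Group II had 8 of 15 higher and 3 lower, with a median of 2.28 over 13 members. This median is the value of XTH20 (2 and 10 reads). The intervals of XTH20 and XTH17, both counted as higher, include no difference. Group III had 1 of 7 higher and 1 lower, with a median of 0.13 over 7 members, again the value of XTH30. These are descriptions of the 2 columns, and the differences between the groups were not tested.

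Markers of flower and other tissues were read beside the family. All 6 analysed floral organ identity genes were lower in mp clv3 (summed level 437 RPKM in clv3, against 2.15 RPKM in mp clv3, with AG not analysed here). The 5 tapetum genes were also lower (554 and 13.5 RPKM, MS2 at 0), beside 16.9% of all genes called lower. Without a minimum fold, all 4 carpel and ovule genes were lower by the authors' FDR (120 and 10.13 RPKM, STK at 0). So were all 5 vascular genes (97.7 and 43.9 RPKM), beside 46.3% of all genes. Of these, SHP1 (1.30-fold) and SUC2 (1.63-fold) were lower by under 2-fold. Of the 4 shoot meristem genes, 3 were higher and KNAT1 was lower by the same measure, beside 26.4% and 46.3% of all genes. Their summed level was 168 RPKM in clv3, against 291 RPKM in mp clv3. In bulk apices, fewer cells of a type and less RNA per cell cannot be told apart, and the part of tissue makeup in the XTH differences was not tested.

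**Figure D1:**
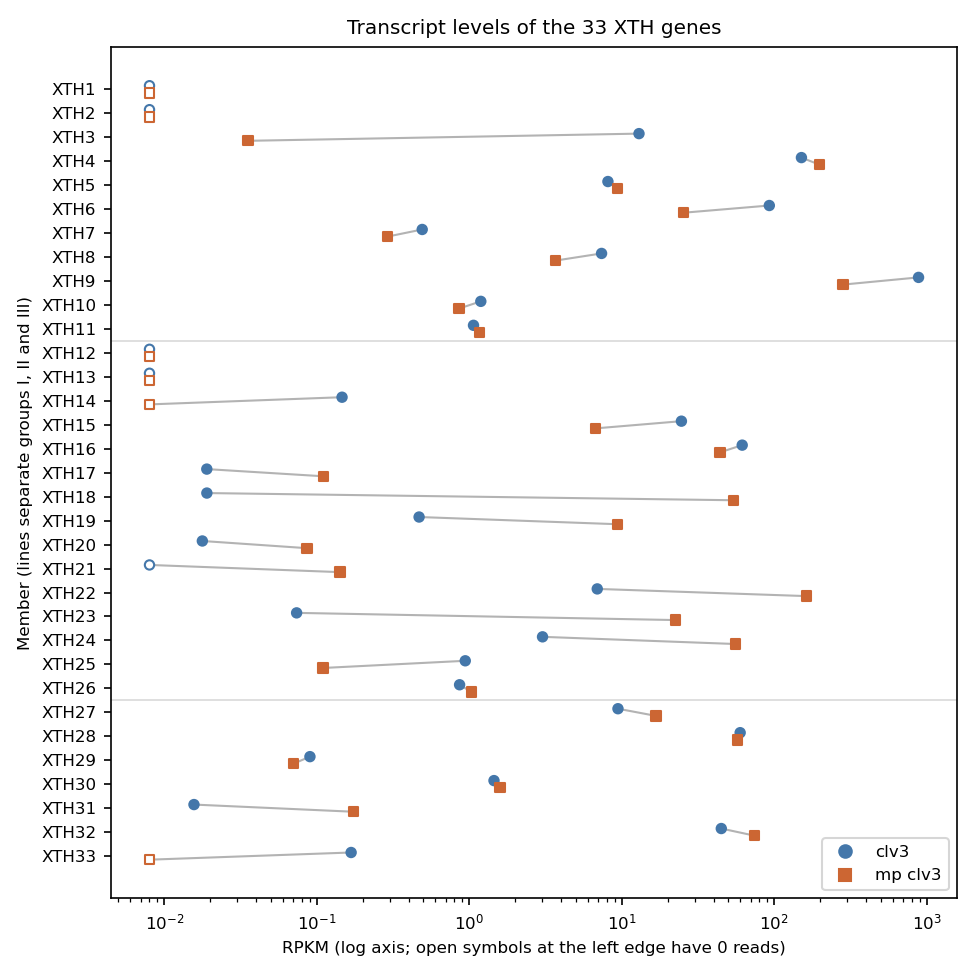
Level of each XTH gene in RPKM (log axis) in clv3 (circles) and mp clv3 (squares), 1 column per genotype, with horizontal lines between groups I, II and III. XTH18 moves from 0.0190 to 54.3 RPKM, and XTH9 is the highest member in both genotypes.

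The summed level of the family was lower in mp clv3, at 1029 RPKM against 1372 RPKM in clv3, a ratio of 0.750. XTH9 decided that direction, since without it the ratio was 1.53. Its members took 0.153% of all reads in clv3 (95% Wilson interval 0.151% to 0.154%) and 0.117% in mp clv3 (0.116% to 0.118%). In clv3, XTH9 made up 64.4% of the family's summed RPKM, and in mp clv3 it made up 27.5%. The run from XTH17 to XTH24, singled out after its values were seen, went from 10.5 RPKM (0.767% of the family sum) to 304 RPKM (29.6%). Members at 10 RPKM or more numbered 8 in clv3 and 11 in mp clv3.

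**Figure D2:**
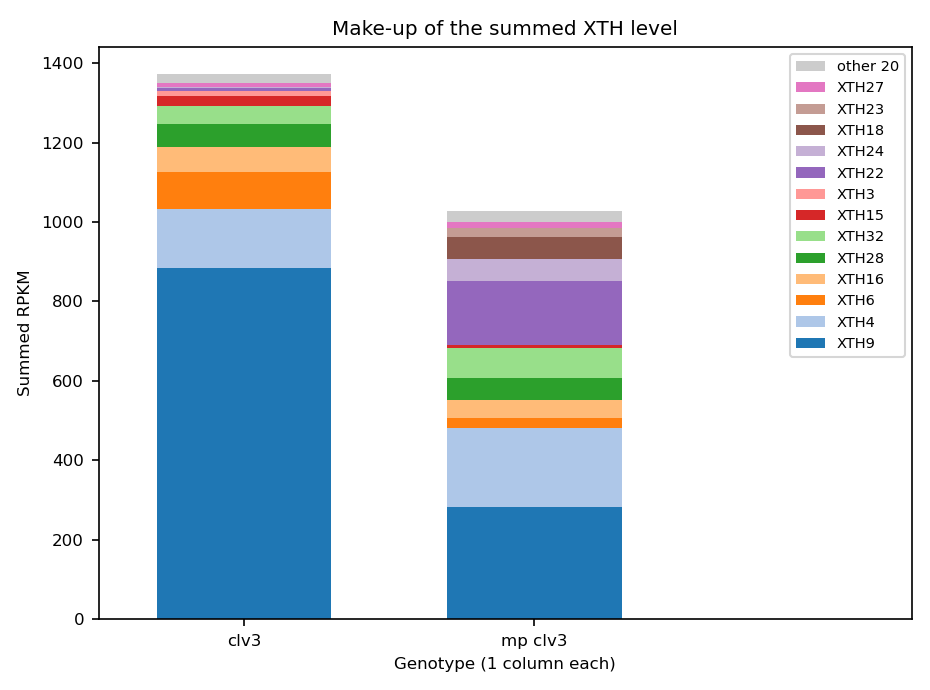
Summed RPKM of the XTH family in clv3 and mp clv3 (1 column each, bars from 0), divided by member. XTH9 fills 64.4% of the clv3 bar and 27.5% of the mp clv3 bar, and XTH22, at 15.8% of the mp clv3 bar, is a thin band in clv3 (0.503%).

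Among the higher members, XTH22 (AT5G57560), first described as the touch-induced gene TCH4, reached the highest level. From 6.91 RPKM (740 reads) in clv3, it came to 162 RPKM (17897 reads) in mp clv3. It was 23.5-fold higher (interval 21.2 to 26.1), and moved from rank 13930 to rank 691 by RPKM among all genes. XTH23 (AT4G25810), its closest relative in the family, came from 0.0738 RPKM (8 reads) to 22.4 RPKM (2506 reads), 304-fold higher (interval 118 to 1118). XTH24 (AT4G30270), first found as the meristem cDNA MERI5, came from 3.02 RPKM (366 reads) to 55.9 RPKM (6970 reads), 18.5-fold higher (interval 15.9 to 21.6). These 3 genes were thus low or nearly silent in clv3 and among the well expressed members in mp clv3.

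XTH18 (AT4G30280) and XTH19 (AT4G30290) belong to a small clade, with XTH17 and XTH20, that is known mainly from roots. XTH18 was counted with only 2 reads, that is 1 read pair, in clv3, against 5876 reads (54.3 RPKM) in mp clv3. Its ratio was 2852, with a wide interval (512 to 112693) because it rests on that pair. XTH19, which is known to act in the rejoining of cut stems, came from 0.469 RPKM (53 reads) to 9.35 RPKM (1089 reads), 19.9-fold higher (interval 13.5 to 30.7). The other members of the clade stayed near the limit of detection in both genotypes. XTH17 (AT1G65310) had 2 and 12 reads and XTH20 (AT5G48070) 2 and 10, and although both had an FDR under 0.05 in the authors' deposited table, their intervals on read pairs (0.707 to 268 and 0.543 to 230) included no difference.

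XTH21 (AT2G18800), of root growth, was without reads in clv3, against 14 reads (0.142 RPKM) in mp clv3, and was thus at least 2.27-fold higher with 0 set to the floor of 3 read pairs and an interval that starts at 1.40. XTH31 (AT3G44990), of the hydrolase pair of group III, came from 2 to 23 reads (0.175 RPKM in mp clv3), 11.2-fold higher (interval 1.64 to 479). Its partner XTH32 (AT2G36870) was far more abundant, at 44.9 and 74.5 RPKM, 1.66-fold higher (interval 1.58 to 1.74).

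Because XTH22 is known for its response to touch, 2 other TOUCH genes were read beside it. TCH3 (AT2G41100), a calmodulin-like calcium sensor, came from 28.2 RPKM (3494 reads) to 981 RPKM (125352 reads), 34.8-fold higher (interval 33.2 to 36.5). TCH2 (AT5G37770), also calmodulin-like, had 18.5 and 42.6 RPKM, 2.31-fold higher (interval 2.11 to 2.52). Both were therefore called higher along with XTH22, beside 8.98% of all genes, and their part in the result was not tested. Other TOUCH genes were not read here.

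**Figure D3:**
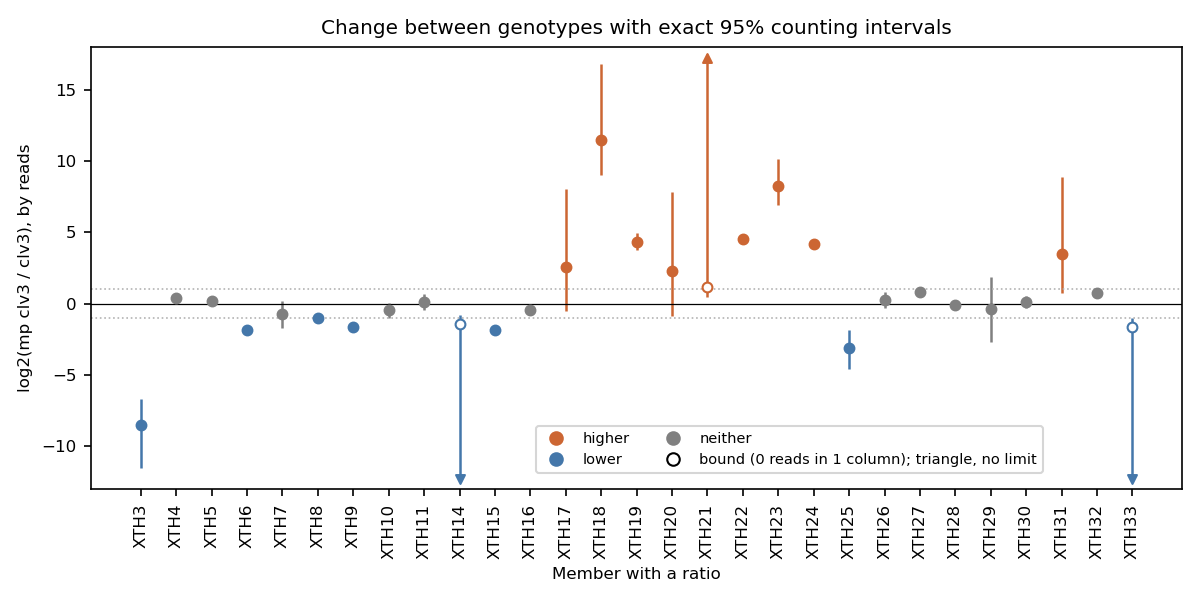
Log2 of the mp clv3 over clv3 ratio, by reads, for the 29 XTH genes with a ratio, with exact 95% counting intervals on read pairs. Orange marks members called higher, blue those called lower and grey the others, dotted lines mark a fold of 2, and open symbols are bounds where 1 column had 0 reads. The block from XTH17 to XTH24 lies above 0, and the intervals of XTH17 and XTH20 cross it.

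Among the lower members, XTH9 (AT4G03210), known for strong expression in inflorescence apices, fell from 883 RPKM (95074 reads) to 283 RPKM (31337 reads). It was 3.13-fold lower (interval 3.07 to 3.18), and it ranked 40 among all genes in clv3 and 347 in mp clv3. XTH6 (AT5G65730) fell from 92.8 RPKM (10379 reads) to 25.5 RPKM (2940 reads), 3.64-fold lower (interval 3.43 to 3.86). XTH15 (AT4G14130), known to be induced in shade, fell from 24.6 RPKM (2629 reads) to 6.75 RPKM (743 reads), 3.64-fold lower (interval 3.25 to 4.10). The annotated gene AT4G14120 overlaps XTH15 on the opposite strand over 382 bases and was also lower (854 and 428 reads). Whether counting used strand is stated in no source used here, so their reads cannot be told apart with certainty. XTH9, XTH6 and XTH15 thus stayed at 6.75 RPKM or more in mp clv3.

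XTH3 (AT3G25050), whose enzyme can also join cellulose chains, came close to absence in mp clv3, with 13.0 RPKM (1421 reads) in clv3 but 0.0354 RPKM (4 reads) in mp clv3. It was 366-fold lower (interval 101 to 3028). XTH25 (AT5G57550) had 100 and 12 reads, 8.58-fold lower (interval 3.68 to 24.5). XTH8 (AT1G11545) had 7.37 and 3.67 RPKM, 2.01-fold lower (837 and 429 reads, interval 1.701 to 2.38). Its interval reached below 2-fold, and the call was lost under median scaling, quantile normalization and a pseudocount of 1 RPKM. XTH14 (AT4G25820), a root member, and XTH33 (AT1G10550), whose protein is anchored at the plasma membrane, were counted with 16 and 18 reads in clv3 and with none in mp clv3. By the floor they were at least 2.75-fold and 3.09-fold lower, and their intervals start at 1.76 and 2.03. The calls of XTH14 and XTH33 were lost under quantile normalization. Those of XTH14, XTH25 and XTH33 were lost under a filter at a mean of 100 reads and with the pseudocount.

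Several abundant members differed by under 2-fold. XTH4 (AT2G06850), active in cambium and xylem, was second to XTH9 in both genotypes, with 151 RPKM (18354 reads) in clv3, against 199 RPKM (24922 reads) in mp clv3, 1.32-fold higher (interval 1.28 to 1.35). XTH16 (AT3G23730) came to 61.6 RPKM (6645 reads) and 44.1 RPKM (4900 reads), 1.40-fold lower (interval 1.33 to 1.47). XTH28 (AT1G14720), which acts in stamen filament growth, had 59.7 and 57.1 RPKM, 1.05-fold lower (8079 and 7958 reads, interval 1.001 to 1.09). That direction turned when the median log2 ratio of well-read genes, -0.12, was set to 0. XTH27 (AT2G01850), of developing xylem cells in veins, had 9.44 and 16.8 RPKM, 1.78-fold higher (interval 1.61 to 1.96), and XTH5 (AT5G13870) had 8.11 and 9.42 RPKM, 1.16-fold higher.

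The rest of the family was barely expressed. XTH7 (AT4G37800) had 56 and 34 reads and XTH10 (AT2G14620) 147 and 109, and both were under an FDR of 0.05 as lower in the authors' deposited table, with the direction turned under quantile normalization. The interval of XTH7 (0.897 to 3.30) and that of XTH10 (1.39-fold, 0.965 to 2.01) included no difference. XTH11, XTH26, XTH29 and XTH30 lay between 0.0701 and 1.59 RPKM in both columns. Of these, XTH26, a root hair member, had 0.864 and 1.03 RPKM, and XTH30 had 1.45 and 1.59 RPKM. For the 4 members without reads, a count of 0 allows up to 3 read pairs, or 0.0598 read pairs for each 1e+06 read pairs of the clv3 column. Taken as a list, the 8 members known mainly from roots (XTH12, XTH13, XTH14, XTH17 to XTH20 and XTH26) summed to 1.54 RPKM in clv3, against 64.8 RPKM in mp clv3, with 4 higher, 1 lower and 3 not called, beside 8.98% and 16.9% of all genes. Of the 4, XTH17 and XTH20 have the intervals given above that include no difference, and XTH21, of root growth, is not in this list. Nearly all of that sum in mp clv3 was XTH18 and XTH19. The root markers PLT1, COBL9 and EXPA7 had 2, 8 and 2 reads in clv3 and 0 in mp clv3, and so were near the limit of detection in both. WOX5 came from 10 to 149 reads and SCR was at 4287 and 2347 reads.

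Many XTH genes lie side by side, and the neighbours did not always share a direction. XTH24, XTH18 and XTH19 stand in a row on chromosome 4 and were all higher in mp clv3. XTH23 and XTH14, also on chromosome 4, parted, with XTH23 304-fold higher and XTH14 lower with its 16 and 0 reads. In the row XTH12, XTH13, XTH25 and XTH22 on chromosome 5, XTH22 was 23.5-fold higher, XTH25 8.58-fold lower, and XTH12 and XTH13 had no reads. XTH1 and XTH2, the remaining neighbours, had no reads either.

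**Figure D4:**
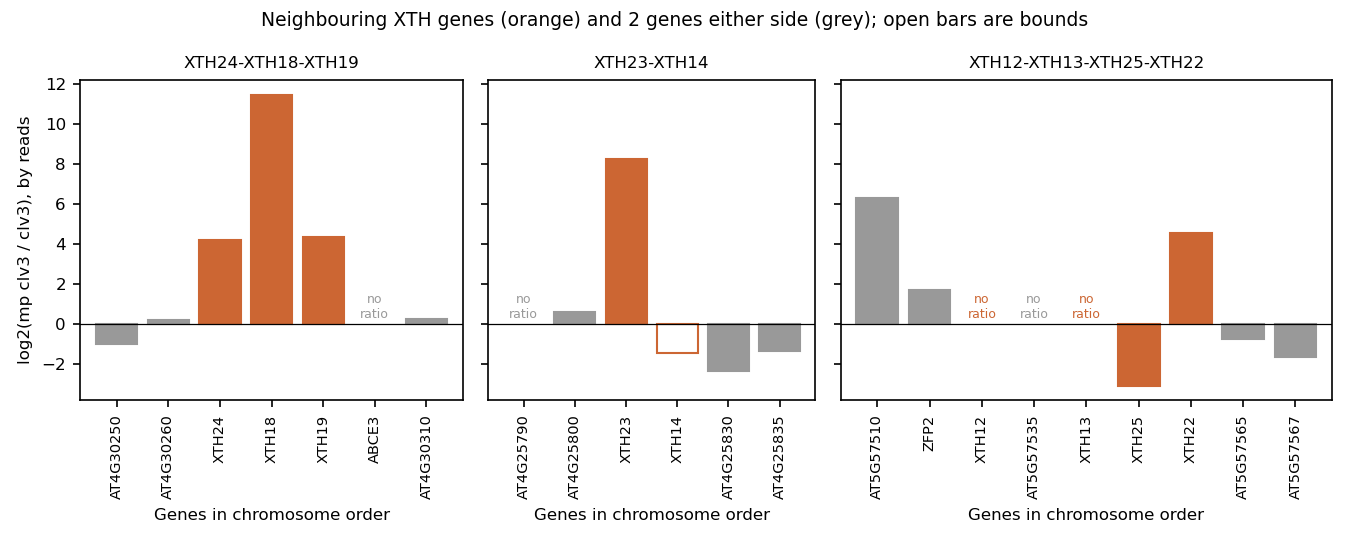
Log2 of the mp clv3 over clv3 ratio, by reads, for 3 rows of neighbouring XTH genes (orange) and 2 genes of the table on either side (grey), in chromosome order. Open bars are bounds and genes without a ratio are marked. All members of the row with XTH18 are higher, while XTH25 and XTH22 lie on opposite sides of 0.

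Such copies could share reads, and no source used here states how reads that match several genes were treated. Over the RefSeq transcripts, no window of 100 bases (the read length) occurred unchanged in 2 members. The closest pair by coding sequence with reads was XTH18 and XTH19, at 87.6% identity, and their longest shared run was 68 bases, within coding exons on the minus strand (TAIR10.1, chr4:14826483-14826550 in XTH18 and chr4:14829475-14829542 in XTH19). It is shown because a read would have to reach beyond it to tell these genes apart.
XTH18 and XTH19: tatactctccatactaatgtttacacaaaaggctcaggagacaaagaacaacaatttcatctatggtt
The 10 pairs that were each other's closest relative by coding sequence gave 2 pairs with both members called the same way (XTH18 with XTH19, XTH22 with XTH23), 3 with 1 member called, 5 with neither called and 0 called in opposite ways. Over all genes, 8.98% were called higher and 16.9% lower. Among the 5, XTH1 with XTH2 and XTH12 with XTH13 had no reads and could not be called. With both members called in only 2 pairs, these counts do not show whether relatives share a direction.

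The 250 bases before the annotated start of each member were searched on both strands for TGTCTC and TGTCGG (auxin response elements, the kind of site that MP and its relatives bind), CACGTG (the G-box) and TTGACC and TTGACT (forms of the W-box of WRKY factors). TGTCTC was found in XTH3 and XTH6, that is in 2 of 33 members, and in 10.9% of the 26643 promoters of the same length. TGTCGG was found in 1 member, XTH20, and in 4.15% of all promoters. CACGTG was found in 0 members and in 6.59% of all promoters. TTGACC was found in 4 members (XTH2, XTH8, XTH20 and XTH32) and in 12.2% of all promoters. TTGACT was found in 2 members, XTH18 and XTH22, and in 19.1% of all promoters. Since these are the members with the largest ratio and with the highest level among the higher ones, their upstream sequences are shown (RefSeq TAIR10.1, minus strand of the chromosome, read toward the gene), with the TTGACT match, here on the opposite strand as AGTCAA, in capitals.
XTH18, chr4:14827212-14827461, minus strand: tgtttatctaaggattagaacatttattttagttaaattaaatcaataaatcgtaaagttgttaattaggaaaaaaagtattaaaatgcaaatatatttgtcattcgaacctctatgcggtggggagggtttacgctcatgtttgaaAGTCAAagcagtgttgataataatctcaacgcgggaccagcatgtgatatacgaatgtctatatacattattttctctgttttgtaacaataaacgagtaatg
XTH22, chr5:23308681-23308930, minus strand: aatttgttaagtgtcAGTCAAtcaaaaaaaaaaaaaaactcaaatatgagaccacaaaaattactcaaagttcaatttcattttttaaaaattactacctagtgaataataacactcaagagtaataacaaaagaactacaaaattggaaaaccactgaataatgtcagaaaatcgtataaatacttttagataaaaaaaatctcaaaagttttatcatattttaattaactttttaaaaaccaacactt
A match of this kind describes the letters in this window and is no evidence of binding.

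Beside the XTH genes, a list of genes that make and trim xyloglucan was read. Of its 18 genes, 0 were called higher and 3 lower, against 8.98% and 16.9% of all genes, so that the 3 lower genes are a share near that of all genes. Without a minimum fold 6 were higher and 10 lower by the authors' FDR, against 26.4% and 46.3% of all genes, with a median log2 ratio of -0.17 against -0.18 over all genes. Of the CSLC genes of backbone synthesis, CSLC4 came from 6.59 to 11.3 RPKM, 1.72-fold higher (interval 1.58 to 1.88). CSLC5 (19.6 and 13.6 RPKM, 1.44-fold) and CSLC8 (15.5 and 10.12 RPKM, 1.53-fold) were lower by the authors' FDR, and CSLC12 was at 6.00 and 7.24 RPKM and CSLC6 at 19.7 and 19.0 RPKM. The xylosyltransferase genes XXT1, XXT2 and XXT5, which add the first side residue, had 17.3, 79.0 and 22.3 RPKM in clv3 and 22.7, 59.2 and 19.3 RPKM in mp clv3. The 3 lower genes were XYL1, the xylosidase that trims chain ends (264 and 127 RPKM, 2.07-fold, interval 2.04 to 2.11), the xylosyltransferase gene XXT3 (2.71-fold, 2.24 to 3.28) and the galactosyltransferase gene XLT2 (2.76-fold, 2.37 to 3.21). XYL1 was the most abundant gene of the list, and its call was lost under median scaling, where its ratio came under 2-fold.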

How the data were processed

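Per the labels' protocols, mRNA purified from total RNA of the apices was used for strand-specific libraries that were read from both ends over 100 bases. CASAVA 1.7, BWA and TAIR10 are named in the submitters' processing notes. The counting tool, its use of strand and the test that gave the FDR are stated in no source used here. The authors deposited 1 column of read counts per genotype, which are estimated counts in that genes without reads carry 0.5, read here as 0. They also deposited RPKM, a log2 ratio of mp clv3 over clv3 (recomputed to within 5.3e-14) and an FDR, an adjusted p-value, per the file headers. Of the counts from 1 to 9, 83.3% (clv3) and 82.5% (mp clv3) were even numbers, whereas from 1000 reads on 49.6% and 49.3% were. Mates were therefore taken as counted separately, and intervals used reads divided by 2. For XTH4 the deposited FDR was 1.4e-178, against an adjusted p-value of 1.3e-89 from the exact binomial test with pairs as counts. XTH7 (0.0169 and 0.161), XTH10 (0.0113 and 0.114), XTH28 (0.00596 and 0.0717), XTH17 and XTH20 were under 0.05 by the FDR only. Whether that FDR took mates as independent was not tested. The calls and the shares of all genes given above rest on that FDR.

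Of 27323 genes, 1 whose cells held other content (AT1G01010) was left out. Folds used reads and column totals (ratio 1.03). A column at 0 was set to a floor of 3 read pairs (6 reads), and a gene with both columns at or under the floor has no fold. Clopper-Pearson intervals at 95% cover counting error only. PCR copies are not independent molecules, so the intervals may be too narrow even for that error. A test across libraries was planned but needs a column per library, so the FDR in the authors' deposited table, with at least 2-fold, made the calls. The intervals and an exact binomial test were tested on simulated counts. These were drawn as independent read pairs, so the simulation does not cover variation among libraries or PCR copies.

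Sequences and gene order came from RefSeq TAIR10.1, which keeps the nuclear chromosomes of TAIR10, through locus tags that matched 26643 genes and all 33 members. The deposited table holds no coordinates. Its gene model lengths equalled the RefSeq transcript for 1 member, so annotated starts may differ from the authors' models. Coding sequences were aligned globally. Members at 10 RPKM or more in either genotype, or called with at least 4-fold, were to be given in full, and pathway genes with at least 2-fold were named along with XXT1, XXT2, XXT5 and CSLC4. Members, lists and motifs were chosen with earlier results of these data known. Alternatives were median scaling, quantile normalization, a filter at a mean of 100 reads, a pseudocount of 1 RPKM, no minimum fold, at least 4-fold and exact binomial tests on read pairs with Benjamini-Hochberg adjustment over all genes. Python 3.11.15, scipy 1.17.1, pandas 2.3.3 and Biopython 1.88 were used.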

Additional observations from a re-analysis of the deposited data

How the results depend on the processing

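No paired analysis was possible because the reads come as 1 column per genotype without replicate numbers, and leaving out a library could not be run for the same reason. Median scaling, which moved all log2 ratios by 0.12, took the family's summed ratio from 0.750 to 0.815. Without XTH9, and without median scaling, the ratio of 0.750 turned to 1.53. Median scaling also ended the calls of XTH8 (7 lower members left) and XYL1 (2 lower pathway genes left). Higher members numbered 5 under the filter at a mean of 100 reads and 5 with a pseudocount of 1 RPKM, both of which lost XTH17, XTH20, XTH21 and XTH31. Lower members numbered 5 under quantile normalization, which lost XTH8, XTH14 and XTH33, and 5 under that filter, which lost XTH14, XTH25 and XTH33. They numbered 4 with the pseudocount, which lost XTH8, XTH14, XTH25 and XTH33, and 2 with at least 4-fold. In the pathway list, 1 gene was higher under quantile normalization, 6 were higher and 10 lower with no minimum fold, and 0 were lower with at least 4-fold. The filter, the pseudocount and the fold limits remove or shrink low genes or small changes by construction, and for quantile normalization the cause was not tested. The exact binomial test on read pairs kept 7 higher and 8 lower members and lost XTH17 and XTH20. Of 194 values of 29 members under these settings, 161 kept their direction and side, 21 lost the call, 8 gained it (all with no minimum fold) and 4 without a call turned direction. These were XTH28 under median scaling and XTH7, XTH10 and XTH29 under quantile normalization, and 0 called members turned. The filter left 9 further member values out, 7 of them of called members, whose calls were lost with them. Most settings kept the authors' FDR, so this does not measure how firm the calls are.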

Other observations

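The genes next to the XTH rows, chosen after the data were seen as 2 genes of the table on either side, did not all share the direction of the members. Beside XTH24, XTH18 and XTH19, AT4G30260 was at 42.5 RPKM in clv3, against 49.0 RPKM in mp clv3, and AT4G30310 at 43.4 and 50.5 RPKM. These were 1.15-fold and 1.17-fold higher, whereas AT4G30250 was 2.06-fold lower. Beside XTH23, AT4G25800 was 1.51-fold higher, and beyond XTH14, AT4G25830 was 5.11-fold lower (32.6 and 6.37 RPKM) and AT4G25835 2.62-fold lower. AT4G30300, next to XTH19, had 6 and 0 reads and no fold. At the row of XTH12 to XTH22, AT5G57510 came from 2 to 162 reads, 78.6-fold higher (interval 13.7 to 3144), and ZFP2 from 18 to 60 reads. Beyond XTH22, AT5G57565 was 1.73-fold lower and AT5G57567 3.13-fold lower (73 and 24 reads). Beside XTH1 and XTH2, AT4G13070 was 1.15-fold and AT4G13100 3.52-fold lower, while RALFL30 had 0 and 8 reads. All of these passed an FDR of 0.05 in the authors' deposited table.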
